A study of Mus musculus with 60 samples.

Results

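Open chromatin of mouse dorsal root ganglia was compared between sciatic nerve axotomy (SNA), in which the nerve is cut, and a sham operation on the same nerve (Sham). The comparison rests on 2 lists of ATAC-seq peaks, 1 for each surgery, with 174605 peaks after SNA and 153556 after Sham, together 328161 of the 1658065 peaks in the 16 lists of the series. Each list pools 3 samples of 1 mouse each, so the 6 samples behind the comparison, of 60 in the series, give no spread between animals. Peaks entered by their list, with repeated intervals collapsed, and a peak counted as shared when it overlapped a peak of the other list by at least 1 bp. Below, an SNA-only peak overlaps no Sham peak and a Sham-only peak overlaps no SNA peak.

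The mice were C57BL/6, aged 6 to 8 weeks, and the L4 to L6 ganglia, the lumbar ganglia that send axons into the sciatic nerve, were taken 24 hours after surgery. No transgene or drug is named in the labels, and the sex of the mice was not given in the sources used here. The other 2 ATAC lists, also of 3 pooled samples each, come from laminectomy (Lam), which opens the bone over the spinal cord and cuts no axon, and from dorsal column axotomy (DCA), a spinal lesion that cuts the central branch of the same neurons. Lam against Sham, both without an axotomy, was measured in the same way as a background. It shares the Sham list with SNA against Sham, so values for both are set side by side and are not independent.

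Dorsal root ganglia hold the cell bodies of sensory neurons, each wrapped by satellite glia, together with Schwann cells, macrophages, vessels and fibroblasts. A sensory neuron can regrow its peripheral branch after a cut, and transcription factors such as Atf3, Jun, Stat3 and Sox11 and effectors such as Gap43 and Sprr1a are known from that response. In ATAC-seq a transposase inserts adapters where DNA is not covered by nucleosomes, so that peaks mark promoters, enhancers and other accessible sites. A bulk list cannot tell a site that opened in many cells from a site that opened strongly in a few, or from a change in the number of cells of a type.

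Promoters of 8 genes are printed first because they show what a difference between the lists looks like at the start of a gene. The first 6 carried an SNA-only peak and the last 2 a Sham-only peak. They were chosen after their values were seen, from the genes of the lists described below and, for Cdk15, from the promoters with a strong peak in the SNA list and in no other. Sequences are RefSeq's for GRCm38.p6, which has the coordinates of mm10, run 5′ to 3′ on the strand of the gene from 250 bases before to 50 bases after the first base of a transcript, and have in capitals the letters TGANTCA, to which AP-1 factors (Fos, Jun and Atf proteins) bind, and TGACGTCA, the cyclic AMP response element (CRE). Both strands were read, neither set of letters contains the other, and a match is a description and not a binding site. Promoters with the AP-1 letters are over-represented among those printed. Of the 20 list genes with an SNA-only promoter peak 5 held these letters, and of the 10 with a Sham-only peak 1 did.
Plaur (chr7:24462233-24462532, plus strand): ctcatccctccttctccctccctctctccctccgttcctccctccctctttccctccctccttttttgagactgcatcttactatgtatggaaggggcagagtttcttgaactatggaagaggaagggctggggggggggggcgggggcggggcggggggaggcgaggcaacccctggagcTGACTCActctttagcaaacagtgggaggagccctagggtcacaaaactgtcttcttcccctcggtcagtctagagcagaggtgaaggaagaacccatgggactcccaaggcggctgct
Th (chr7:142899946-142900245, minus strand): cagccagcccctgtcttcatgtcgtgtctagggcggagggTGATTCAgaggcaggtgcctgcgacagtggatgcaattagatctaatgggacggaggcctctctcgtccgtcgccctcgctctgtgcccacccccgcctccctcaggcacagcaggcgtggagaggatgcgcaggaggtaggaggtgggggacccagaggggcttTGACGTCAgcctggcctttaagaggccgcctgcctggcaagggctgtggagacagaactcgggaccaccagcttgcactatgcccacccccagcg
Nts (chr10:102490369-102490668, minus strand): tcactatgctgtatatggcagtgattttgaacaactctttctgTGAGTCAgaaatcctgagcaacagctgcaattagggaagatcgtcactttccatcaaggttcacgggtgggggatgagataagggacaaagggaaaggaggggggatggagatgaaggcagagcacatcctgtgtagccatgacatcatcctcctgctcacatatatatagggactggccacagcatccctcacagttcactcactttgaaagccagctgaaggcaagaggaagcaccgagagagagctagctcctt
Cntn4 (chr6:106118692-106118991, plus strand): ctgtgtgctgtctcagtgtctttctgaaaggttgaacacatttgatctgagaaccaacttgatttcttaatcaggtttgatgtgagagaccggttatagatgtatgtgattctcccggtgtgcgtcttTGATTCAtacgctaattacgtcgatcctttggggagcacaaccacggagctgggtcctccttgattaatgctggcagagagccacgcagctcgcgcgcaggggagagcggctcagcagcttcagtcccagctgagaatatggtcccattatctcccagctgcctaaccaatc
Cdk15 (chr1:59256656-59256955, plus strand): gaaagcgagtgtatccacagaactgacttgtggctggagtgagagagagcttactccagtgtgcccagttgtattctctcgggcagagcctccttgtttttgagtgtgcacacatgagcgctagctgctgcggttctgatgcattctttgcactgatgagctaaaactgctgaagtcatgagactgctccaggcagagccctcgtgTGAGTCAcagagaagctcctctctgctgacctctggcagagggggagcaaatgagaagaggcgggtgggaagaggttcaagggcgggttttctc
Tnfrsf12a (chr17:23677400-23677699, minus strand): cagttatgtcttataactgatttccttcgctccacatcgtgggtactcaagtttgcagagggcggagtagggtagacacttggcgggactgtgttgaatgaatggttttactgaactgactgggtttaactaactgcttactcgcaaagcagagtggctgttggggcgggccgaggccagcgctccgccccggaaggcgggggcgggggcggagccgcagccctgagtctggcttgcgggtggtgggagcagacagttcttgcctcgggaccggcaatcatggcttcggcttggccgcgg
Lrrc4c (chr2:96317919-96318218, plus strand): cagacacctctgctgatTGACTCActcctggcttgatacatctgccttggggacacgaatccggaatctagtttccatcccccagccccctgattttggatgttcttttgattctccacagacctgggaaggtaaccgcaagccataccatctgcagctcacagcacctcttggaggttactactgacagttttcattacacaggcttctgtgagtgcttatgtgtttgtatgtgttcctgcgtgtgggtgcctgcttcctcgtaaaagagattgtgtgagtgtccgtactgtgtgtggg
Trpv1 (chr11:73233899-73234198, plus strand): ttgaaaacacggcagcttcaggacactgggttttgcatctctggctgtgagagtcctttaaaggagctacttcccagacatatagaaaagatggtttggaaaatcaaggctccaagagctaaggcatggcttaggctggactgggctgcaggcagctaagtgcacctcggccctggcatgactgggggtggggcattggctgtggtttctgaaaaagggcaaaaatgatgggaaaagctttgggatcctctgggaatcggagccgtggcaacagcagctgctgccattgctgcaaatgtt

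Plaur encodes the urokinase receptor, a protease receptor induced in injured sensory neurons. Its SNA-only peak, chr7:24462368-24462612, lay 2382 bp from the nearest Sham peak and contained the AP-1 letters at base -69 from the start, and peaks of the Lam and DCA lists also overlapped this promoter. Th encodes tyrosine hydroxylase, the enzyme that marks the low-threshold C-fibre mechanoreceptors of the ganglion. The SNA-only peak there contained the CRE letters, at base -45, whereas the AP-1 letters at base -210 lay outside it, and Lam and DCA peaks were present too. Nts, which encodes the neuropeptide neurotensin, had a peak in SNA and in no other list, and its AP-1 letters at base -207 lay outside the peak. The promoters of Cntn4, an adhesion protein of axons, and of Cdk15 had peaks in SNA and in no other list, each with the AP-1 letters inside it, at bases -122 and -44. Tnfrsf12a, the receptor of the cytokine TWEAK, had an SNA-only peak in no other list and neither motif. On the Sham side, Lrrc4c, which encodes a netrin-G ligand, also had AP-1 letters inside its peak, at base -233, and Trpv1, the capsaicin and heat receptor of nociceptors, had a Sham-only peak that Lam and DCA shared and none of these letters.

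Beside the lists named above, Lam held 158160 peaks and DCA 164365, and the 4 lists covered between 78.8 and 92.1 Mb. The background level recovered from the peaks, the only sign of depth in the lists, was 16.19 reads in Sham and 17.28 in SNA, beside 17.23 in Lam and 18.38 in DCA. Chromosome X held between 433 and 554 peaks in a list and chromosome Y between 13 and 21. The tissue was checked against promoter peaks of defining markers. Of 8 sensory neuron markers with a promoter sequence, 7 had a peak in Sham and 7 in SNA, beside 8 in Lam and 8 in DCA, with Trpv1 the one absent from SNA. Both macrophage markers with a sequence, Cx3cr1 and Itgam, had none in Sham, SNA or DCA, and 1 of the 2 had a peak in Lam. Of 3 markers of satellite glia and Schwann cells 2 had a peak in every list. Of 2 markers of other organs 1, Myh6, had a promoter peak in SNA, and 0 had a peak in the other lists. No test between surgeries was possible with 1 list each, and the intervals given are 95% Wilson intervals, which cover counting error only.

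Most peaks of either list had no partner in the other, and the control comparison gave nearly the same share. Of the SNA peaks 59.6% (interval 59.4% to 59.8%) overlapped no Sham peak, and of the Sham peaks 53.8% (53.6% to 54.1%) overlapped no SNA peak. For Lam against Sham the shares were 59.4% of Lam peaks and 58.4% of Sham peaks. The 104031 SNA-only peaks were narrower and lower than the 70574 shared ones, with a median width of 383 bp against 588 bp and a median fold enrichment of 1.97 against 2.19, as the authors' peak caller gave it. At the border of the rule, 138 SNA peaks overlapped a Sham peak by 1 to 10 bp and 125 ended within 10 bp of one without overlap, while 81076, or 46.4% of the list, lay over 1 kb from any Sham peak. The share without a partner depended on peak strength. In the weakest decile of the SNA list by −log10 p it was 76.7% and in the strongest 7.84%, against 76.5% and 8.05% for Lam peaks without a Sham peak. The SNA and Lam curves therefore nearly coincided, and the Sham curve against SNA, which ran from 71.3% to 5.84%, lay below both.

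**Figure D1:**
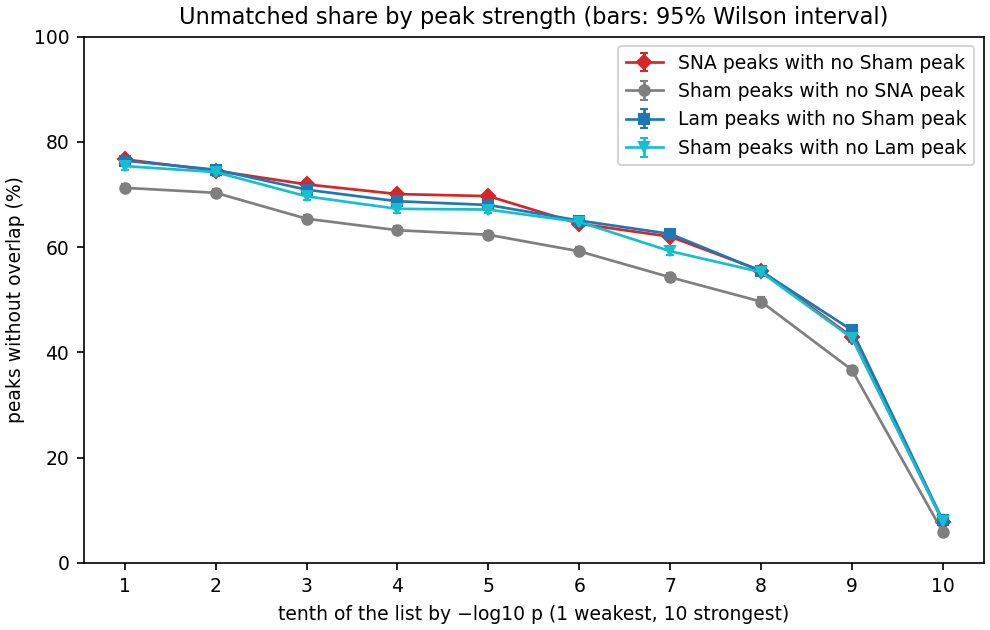
Share of peaks with no overlapping peak in the other list (y axis, percent) for each decile of a list by −log10 p (x axis, 1 weakest, 10 strongest), with 95% Wilson intervals as bars. SNA against Sham and Lam against Sham run from about 76.7% and 76.5% down to 7.84% and 8.05%, and Sham peaks without an SNA peak lie lower throughout.

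The lists differed more in the number of strong peaks, defined as those at or above 5 in −log10 q in the authors' lists. Sham held 21157 of them (13.8% of its peaks), SNA 35056 (20.1%), Lam 20850 (13.2%) and DCA 26768 (16.3%). SNA thus had 1.66 times as many strong peaks as Sham and 1.68 times as many as Lam, whose background level differed from that of SNA by a factor of 1.003, whereas Lam over Sham was 0.985. The q limit was not the same p limit in each list. The lowest −log10 p of a strong peak was 7.48 in SNA, 7.57 in DCA and 7.68 in Sham and in Lam. Other limits gave smaller ratios in the same direction. With a fold enrichment of at least 3 the ratio of SNA to Sham was 1.22 and that of Lam to Sham 0.900, and with a −log10 p of at least 8 they were 1.49 and 0.926. Of the strong SNA peaks 25.5% (8939) overlapped no Sham peak of any strength, and of the strong Sham peaks 12.3% (2593) overlapped no SNA peak. The matching shares were 15.1% for strong Lam peaks without a Sham peak and 15.4% for strong Sham peaks without a Lam peak. Strong peaks present in a single list of the 4 made up 10.2% of the strong SNA peaks (3565), 5.70% in Sham, 5.09% in Lam and 7.12% in DCA.

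The surplus of strong SNA peaks lay away from the starts of genes. Within 1 kb of a start site SNA had 10140 strong peaks and Sham 8856, a ratio of 1.14. In gene bodies over 1 kb from a gene end the numbers were 13225 and 6232, a ratio of 2.12, and between genes 9687 and 4721, a ratio of 2.05. Lam over Sham was 0.999, 1.00 and 0.918 in the same order. Among genes, the ratio of strong peaks was larger the longer the genes, from 1.36 in genes of up to 10 kb to 1.88 in genes over 500 kb, while Lam over Sham went from 1.03 to 0.930. With all peaks counted the ratio of SNA to Sham was 1.13 in the shortest genes, 1.21 in genes of 100 to 250 kb and 1.05 in the longest. The longest genes therefore differed in how many of their peaks were strong in SNA, and little in their number of peaks of any strength.

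**Figure D2:**
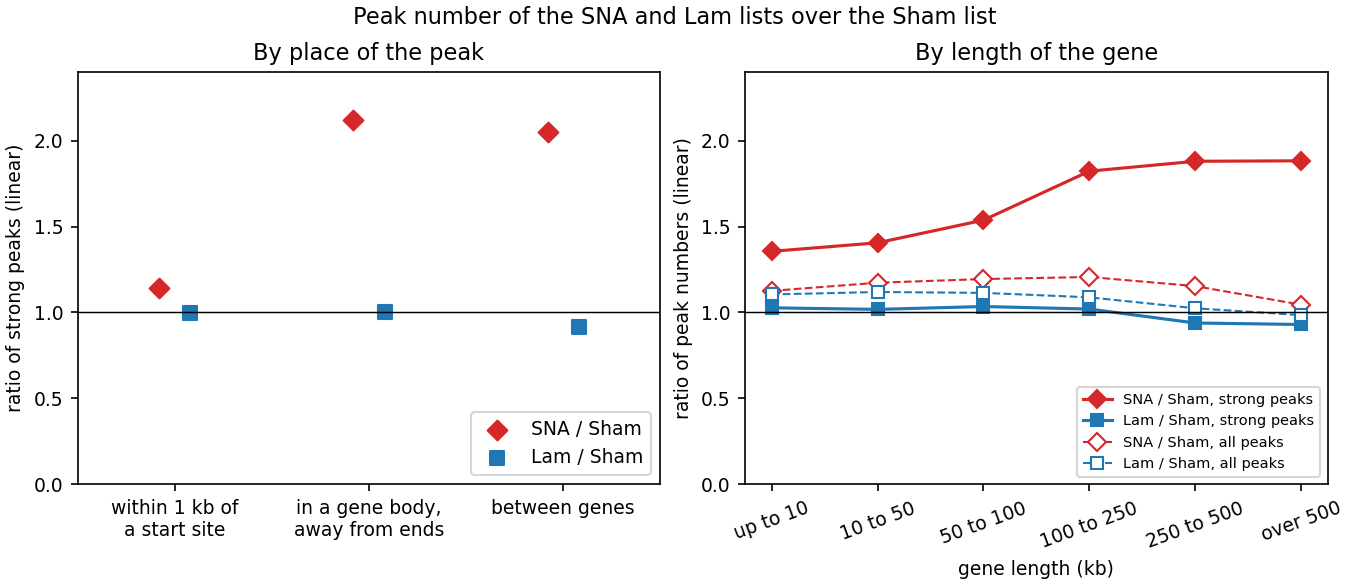
Ratio of peak numbers (y axis, linear) of SNA to Sham and of Lam to Sham, by place of strong peaks (left) and by gene length in kb (right, filled symbols for strong peaks and open for all peaks). SNA over Sham for strong peaks is 1.14 near start sites and 2.12 in gene bodies, and Lam over Sham for strong peaks lies between 0.918 and 1.03 in all classes drawn.

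Each of 21883 protein-coding genes was then given the number of peaks in its body and 10 kb on either side. A gene was called when the numbers differed by at least 3 peaks and at least 2-fold. In SNA against Sham 1674 genes, 7.65% of those counted, were called as gains and 445, or 2.03%, as losses. Lam against Sham gave 1323 gains (6.05%) and 704 losses (3.22%), so gains were nearly as frequent between the controls, neither of which had an axotomy. The median net was 0 in both comparisons, and 10237 genes had more peaks in SNA than in Sham and 5264 fewer. Called gains lay in 1373 separate places and called losses in 402, since neighbouring genes can share peaks. With lists of equal size, SNA against Sham gave 1070 gains and 779 losses and Lam against Sham 1193 and 781. With strong peaks alone the comparisons parted. SNA against Sham gave 1287 gains (5.88%) and 24 losses (0.110%), and Lam against Sham 168 gains (0.768%) and 171 losses (0.781%). The sets of strong peaks differed in size, with 35056 in SNA, 21157 in Sham and 20850 in Lam. These counts were not repeated with equal numbers of strong peaks. Of the 1674 gains 101 were also called from strong peaks, and of the 445 losses 0 were.

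The 12 largest net gains were in genes of 401 to 1088 kb. Atrnl1 (chr19:57610960-58133343), which encodes the membrane protein attractin-like 1, had 60 peaks in Sham and 126 in SNA, beside 116 in Lam and 98 in DCA. With Erc2 it had the largest net gain of any gene, 66 peaks, but in Atrnl1 Lam was close to SNA. Its strong peaks numbered 7 in Sham and 34 in SNA, beside 12 in Lam and 12 in DCA, so SNA stood apart there. Tnik (chr3:28261901-28670585), a kinase of the Nck-interacting family, had 27 peaks in Sham and 67 in SNA, beside 36 in Lam and 35 in DCA, and 57 of its SNA peaks overlapped no Sham peak. Atrnl1 and Tnik alone of the 12 largest gains reached the 2-fold limit, and SNA was the highest list for Tnik by 31 peaks over Lam.

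Erc2, a scaffold of the presynaptic active zone, had 93 peaks in Sham and 159 in SNA, beside 136 in Lam and 110 in DCA. Asic2, a proton-gated channel, had 81, 133, 120 and 132 peaks in the same order. Dpp6, an auxiliary subunit of Kv4 potassium channels, had 154, 200, 181 and 170. In these genes Sham was the lowest of the 4 lists. Rbms3, an RNA-binding protein, had 101 peaks in Sham and 157 in SNA but 165 in Lam, which was the highest. Akap6, an anchor of protein kinase A, had 42, 80, 64 and 59 peaks, and Ank2, or ankyrin-B, which links membrane proteins to the spectrin skeleton, had 122, 159, 139 and 131. Dst, or dystonin, a cytoskeletal linker whose loss causes sensory neuropathy in mice, had 87, 119, 112 and 106. The other 3 of the 12, Csmd2, Wwox and Spock1, had between 33 and 38 more peaks in SNA than in Sham, and SNA was the highest list in each.

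Ranked by strong peaks instead, a ranking added after the data were seen, the first gene was Rbfox1, a splicing regulator of neurons. It had 9 strong peaks in Sham and 38 in SNA, beside 16 in Lam and 24 in DCA, although its peaks of any strength were fewer in SNA (176) than in Sham (187). Ank2 had 18, 43, 16 and 17 strong peaks, and Ank3, the ankyrin-G of the axon initial segment and nodes, 3, 21, 8 and 9. Piezo2, the mechanotransduction channel of touch and proprioceptive neurons, had 5, 20, 8 and 10. In each of these SNA was the highest of the 4 lists, with DCA next for Rbfox1, Ank3 and Piezo2. Csmd1, Dpp6, Nav2, Rbms3, Prkce, Dst and Apbb2 completed the first 12 with Atrnl1, with between 18 and 34 strong peaks in SNA and between 5 and 16 in Sham.

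**Figure D3:**
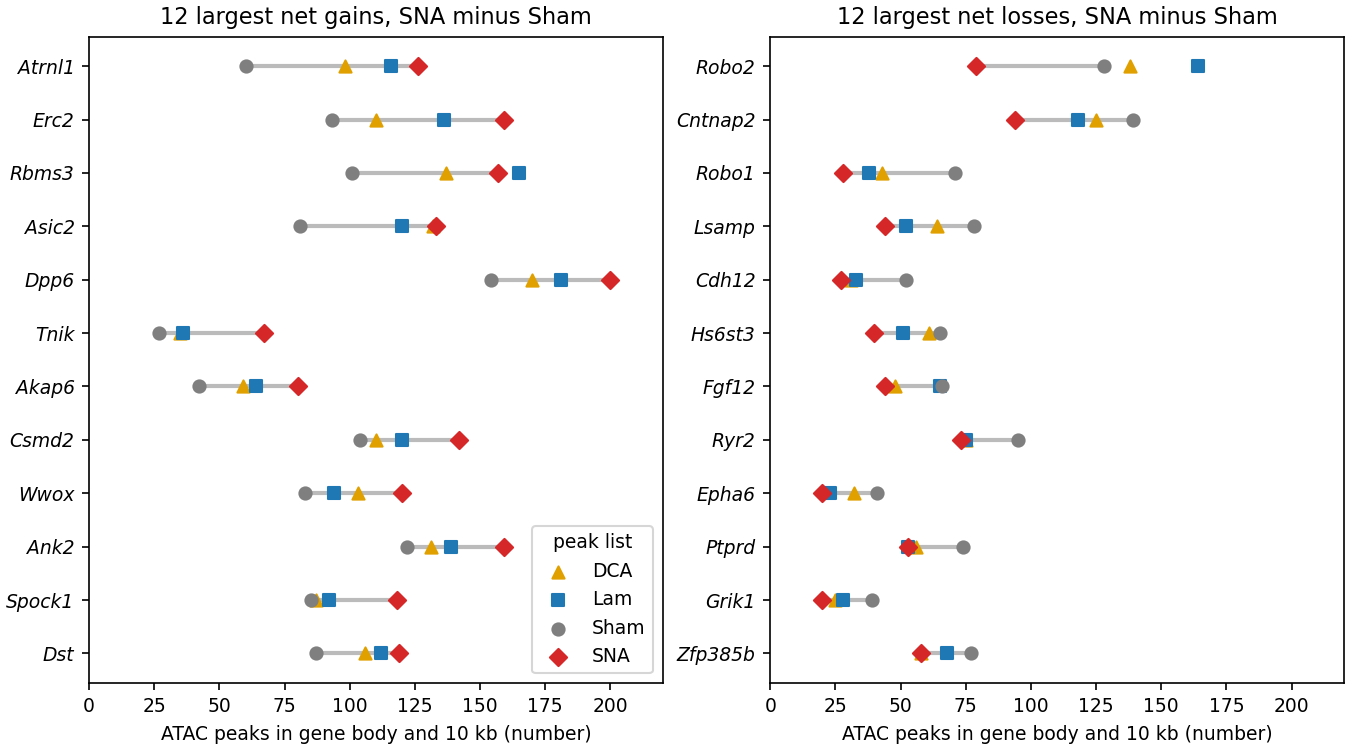
Number of ATAC peaks in the gene body and 10 kb on either side (x axis) of the genes with the 12 largest net gains (left) and net losses (right) in SNA minus Sham, 1 point for each of the 4 lists, with a grey bar from Sham to SNA. Lam and DCA lie between Sham and SNA for 11 of the 12 gains, and for Robo2 they lie at 164 and 138 peaks, above both.

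The 12 largest net losses included Robo1 and Robo2 of the axon guidance list and 4 genes of the adhesion list described below. Robo2 (chr16:73891976-75447443), a receptor for Slit guidance cues, had 128 peaks in Sham and 79 in SNA, beside 164 in Lam and 138 in DCA. SNA was the lowest list, with 35 SNA-only against 86 Sham-only peaks, but its strong peaks numbered 20, 22, 22 and 18 and so were level. Robo1 (chr16:72027518-73047491), the related receptor, had 71 peaks in Sham and 28 in SNA, beside 38 in Lam and 43 in DCA, which met the rule for a loss. Here Sham was the high list, and Lam and DCA were nearer to SNA. Cntnap2, the Caspr2 protein that clusters potassium channels beside nodes of Ranvier, had 139, 94, 118 and 125 peaks, and Lsamp, an adhesion protein of neuronal membranes, 78, 44, 52 and 64. Epha6, an ephrin receptor, had 41, 20, 23 and 32 and was the other called loss among the 12. Grik1, the kainate receptor subunit of C-fibre neurons, had 39, 20, 28 and 25 peaks.

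Grik1 and Cdh12 were the 2 of these 12 genes that met the rule for a loss among strong peaks. Grik1 had 8 strong peaks in Sham and 1 in SNA, beside 2 in Lam and 1 in DCA. Cdh12, a cadherin, had 52, 27, 33 and 31 peaks and 5, 2, 2 and 1 strong peaks. Sham stood apart from the other 3 lists in both. In Robo1 and Epha6 the strong peaks went the other way, from 4 to 6 and from 4 to 7. Hs6st3, Fgf12, Ryr2, Ptprd and Zfp385b had between 19 and 25 fewer peaks in SNA than in Sham. Of these Ryr2, a calcium release channel, had more strong peaks in SNA (15) than in Sham (5), as did Fgf12 (14 and 8) and Zfp385b (7 and 5), and Hs6st3 (4 and 6) and Ptprd (6 and 7) had fewer. Of the 12 largest losses 6 lay on chromosome 16. Called losses made up 2.95% of the genes of that chromosome and between 1.08% (chromosome 9) and 3.74% (chromosome 15) of those of the other autosomes. The whole of chromosome 16 held 6071 peaks in SNA and 6088 in Sham, the lowest ratio of any autosome at 0.997, and chromosome 11 the highest at 1.26. For strong peaks the same ratio was between 1.55 and 1.73 on every autosome.

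In 4 genes followed along their length, the peaks that differed were spread over the gene body. Stat3 (chromosome 11), the transcription factor that cytokine receptors activate, had 7 peaks in Sham and 20 in SNA, beside 15 in Lam and 9 in DCA, and 17 of the SNA peaks overlapped no Sham peak. Of its SNA peaks 3 were strong, against 2 in Sham, so nearly all additional peaks were weak ones. Cacna2d1, the α2δ-1 calcium channel subunit that binds gabapentin and is known to rise in sensory neurons after nerve injury, had 21 peaks in Sham and 47 in SNA, beside 30 in Lam and 17 in DCA. They covered 10.0 kb in Sham and 22.5 kb in SNA, and 9 SNA peaks were strong against 3, 2 and 1 in Sham, Lam and DCA. Robo2 had fewer peaks in SNA over its whole length, with 68.9 kb covered in Sham, 35.5 kb in SNA, 79.8 kb in Lam and 70.3 kb in DCA.

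**Figure D4:**
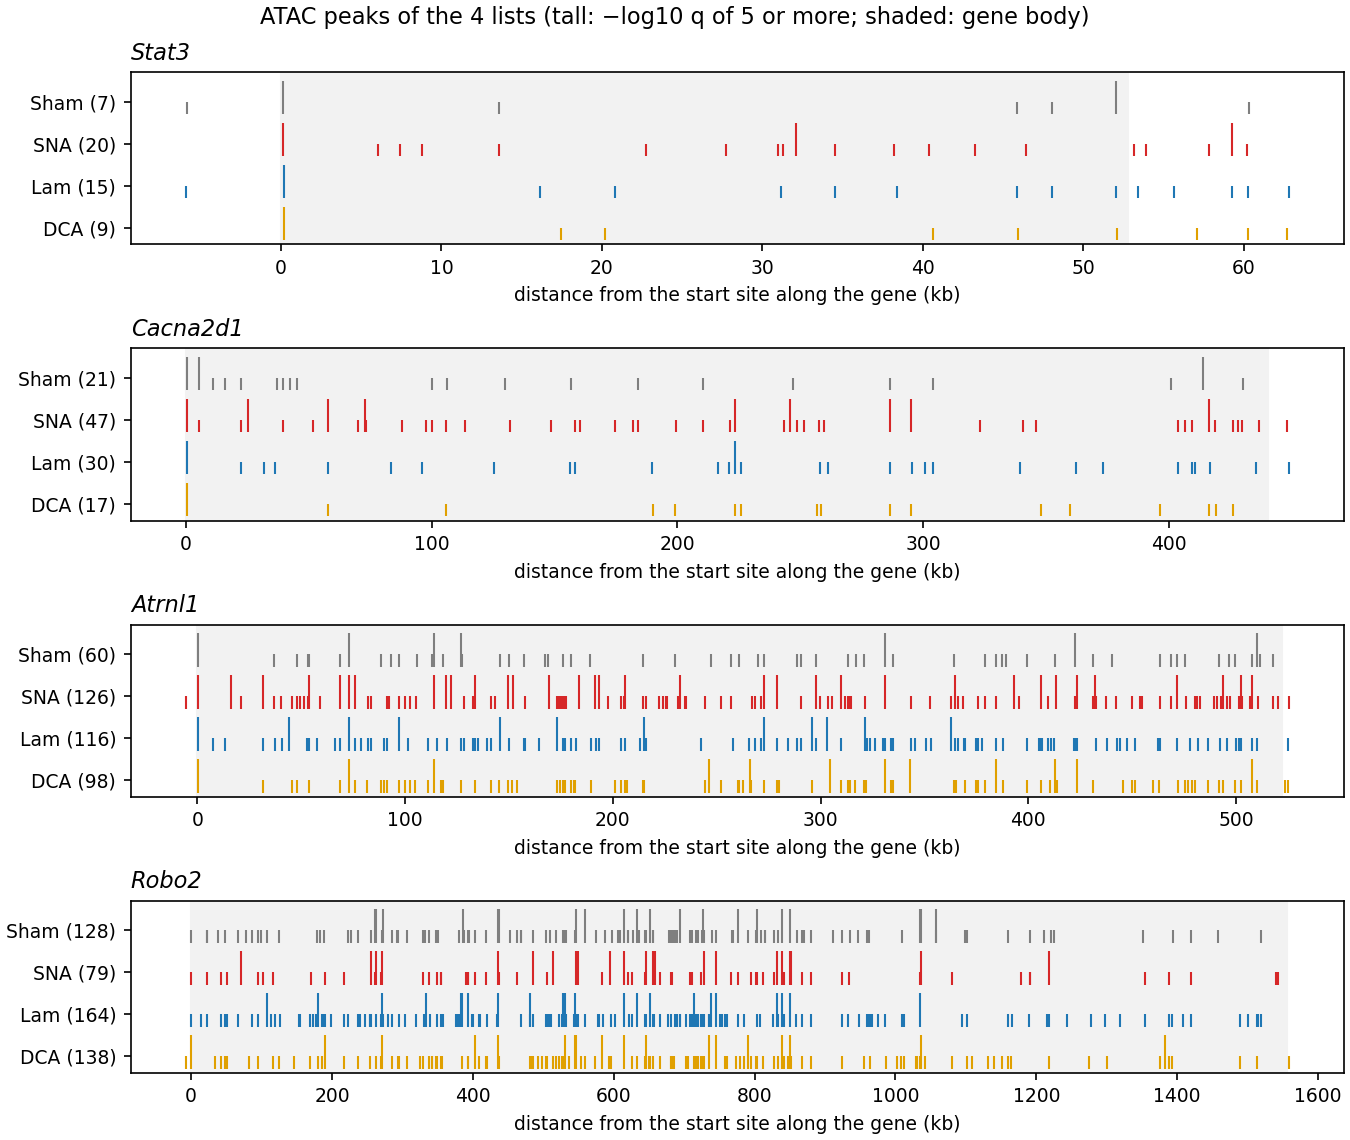
Position of each ATAC peak as distance from the start site (x axis, kb) in Stat3, Cacna2d1, Atrnl1 and Robo2, 1 row for each list with its number of peaks. Tall ticks are strong peaks and the shaded span is the gene body, SNA holds more peaks than Sham over Stat3, Cacna2d1 and Atrnl1, and Robo2 holds 79 in SNA against 128 in Sham.

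Genes of up to 50 kb that met the rule included 1274 gains and 339 losses. Bcl7a, a subunit of the BAF chromatin remodelling complexes, had 7 peaks in Sham and 20 in SNA, beside 12 in Lam and 12 in DCA. Gpa33, a cell surface antigen, had 5, 17, 6 and 7, and Slc6a4, the serotonin transporter, 4, 14, 9 and 10. N4bp1 had 3, 14, 8 and 5. SNA was the highest list in these 4. Tsc2, the inhibitor of mTOR signalling, had 8 peaks in Sham and 18, 17 and 17 in SNA, Lam and DCA, so that Sham was the list apart. Nudt3, Rusc2, Angpt4, Dupd1 and Elmod3 had between 15 and 21 peaks in SNA and between 5 and 10 in Sham. Nudt3 alone of these had fewer strong peaks in SNA (2) than in Sham (4).

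Among compact losses, Relb, a subunit of NF-κB, had 14 peaks in Sham and 5 in SNA, beside 8 in Lam and 8 in DCA, and Ubl3 15, 6, 7 and 7. Trpm5, a cation channel of taste cells, had 8, 1, 8 and 4, and Nadk2, the mitochondrial NAD kinase, 10, 3, 7 and 6. SNA was the lowest of the 4 lists in all of these. Henmt1 had 8, 1, 2 and 8 and Mc4r, a melanocortin receptor, 8, 1, 3 and 2, so that Lam was also low. Entpd6, Lrig3, Fads2 and Agrn, the last of which encodes agrin, lost 7 peaks each, but among strong peaks Entpd6, Fads2, Agrn and Mc4r each had 1 more in SNA than in Sham.

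To set SNA against all 3 other lists, genes were counted whose SNA number passed the same rule against the highest or the lowest of the others, a count added after the data were seen. SNA was above the other 3 in 152 genes (0.695%) and below them in 50 (0.228%). For Sham the numbers were 55 above and 333 below, for Lam 79 and 148, and for DCA 85 and 101. Sham was therefore the list most often at the bottom, and SNA the list most often at the top. Sham was also the smallest list (153556 peaks) and SNA the largest (174605), and this count was not repeated at equal size. Zdhhc2, a palmitoyltransferase, led with 2 peaks in Sham and 19 in SNA, beside 7 in Lam and 5 in DCA, and shared 7 of its SNA peaks with the neighbouring gene Cnot7. Pla2r1, the receptor of secreted phospholipase A2, had 9, 20, 8 and 8, and Elapor1 8, 20, 10 and 10. Below the others were Adsl, an enzyme of purine synthesis, with 10, 4, 10 and 10 peaks, and Mbtps1, the site-1 protease, with 12, 6, 12 and 14.

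Across the 231 genes of 11 lists chosen for this tissue and injury, 18 were called as gains and 5 as losses, which is 7.79% and 2.16% beside 7.65% and 2.03% of all genes. Lam against Sham called 19 gains (8.23%) and 15 losses, beside 6.05% and 3.22% of all genes. From strong peaks alone 31 members (13.4%) were gains and 2 (0.866%) losses, beside 5.88% and 0.110% of all genes. For Lam they were 7 (3.03%) and 13 (5.63%), beside 0.768% and 0.781%, so the listed genes were also called more often than all genes between the controls. The lists were chosen with earlier results of these data known, so their counts are descriptions.

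Of 18 injury transcription factors, 3 (16.7%, beside 7.65% of all genes) were called as gains and 0 as losses, with a median net of 1 peak. Lam against Sham also called 3 gains (16.7%, beside 6.05%). Sox11, a factor that promotes axon growth, had 2 peaks in Sham and 6 in SNA, beside 1 in Lam and 2 in DCA, so SNA was the highest list. Atf3, the stress factor most used as a marker of axotomised neurons, had 1 peak in Sham and 6, 6 and 7 in SNA, Lam and DCA, so Sham was the list apart. Stat3 was the other gain. Klf7, a factor linked to axon growth, had 19, 24, 17 and 16 peaks, of which 1, 8, 4 and 4 were strong. Smad1, which transmits bone morphogenetic protein signals, had 1, 4, 1 and 3 strong peaks. Jun had 4 peaks in both lists, Fos 6 in Sham and 7 in SNA, Klf6 3 in both, and Egr1 2 and 1. The list as a whole summed to 100 peaks in Sham and 136 in SNA, beside 110 in Lam and 110 in DCA. From strong peaks 2 members (11.1%, beside 5.88% of all genes) were gains and 0 losses. For Lam against Sham they were 1 gain (5.56%, beside 0.768%) and 0 losses.

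Effectors and receptors of the injury response had 7 called gains and 0 losses among 31 genes. The gains were 22.6% of the list beside 7.65% of all genes, and Lam against Sham also had 7 gains and 0 losses, 22.6% beside 6.05%. Gap43, a growth cone protein, had 1 peak in Sham and 8 in SNA, beside 4 in Lam and 6 in DCA, of which 2 were strong in SNA and 0 in the other lists. Sema6a, a transmembrane semaphorin, had 12, 30, 16 and 19 peaks and 1, 8, 4 and 3 strong ones. Stmn2, a microtubule regulator of growing axons, had 9, 19, 15 and 14. SNA was the highest list in each of these. Arg1, or arginase 1, which is known to aid axon growth, had 0 peaks in Sham and 5 in SNA, beside 3 in Lam and 3 in DCA. Tnfrsf12a had 3, 9, 6 and 6, Flrt3, an adhesion protein of growing axons, 3, 7, 3 and 3, and Cacna2d1 completed the gains. The receptor Lifr had 24, 36, 26 and 26 peaks without reaching 2-fold. Sprr1a, one of the most induced genes of axotomised ganglia, had 1 peak in both Sham and SNA, Npy 3 and 2, and Gal 3 and 5. The list summed to 183, 273, 226 and 190 peaks, a ratio of SNA to Sham of 1.49 beside 1.23 for Lam to Sham. From strong peaks 2 members (6.45%, beside 5.88% of all genes) were gains and 0 losses, so the share was near that of all genes. For Lam against Sham they were 1 gain (3.23%, beside 0.768%) and 0 losses.

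Among 20 genes of sensory neuron identity, Th was the only called member, a gain (5%, beside 7.65% of all genes). It had 2 peaks in Sham and 5 in SNA, beside 2 in Lam and 2 in DCA. Lam against Sham called 2 gains (10%, beside 6.05%). Ntrk3, the neurotrophin receptor of proprioceptors, had 54, 78, 68 and 57 peaks, and Ntrk2 and Runx1 each gained strong peaks, from 3 to 7 and from 3 to 8. Nefh, the heavy neurofilament of large neurons, had 5, 7, 6 and 7 peaks, of which 4 were strong in Sham and 1 in SNA, beside 1 in Lam and 2 in DCA. The list summed to 281, 331, 332 and 307 peaks, so SNA and Lam were nearly level, and a net of 50 peaks over Sham became -1 when Lam was the control. Among 27 sensory channels none was called in either direction from all peaks, beside 7.65% and 2.03% of all genes. Lam against Sham called 2 gains (7.41%, beside 6.05%) and 2 losses (beside 3.22%). From strong peaks 5 channels (18.5%, beside 5.88% of all genes) were gains. Among these, besides Piezo2, were Cacna1b, the N-type calcium channel, with 1 strong peak in Sham and 13 in SNA, beside 6 in Lam and 2 in DCA, Cacna2d3 with 7, 15, 5 and 11, and Kcnd3 with 3, 6, 3 and 5. Scn10a, the Nav1.8 channel of nociceptors, had 17 peaks in Sham and 29, 29 and 34 in the others, and Trpv1 9, 5, 15 and 11. The channel list summed to 551, 596, 610 and 604 peaks, and its net of 45 over Sham became -38 with lists of equal size and -14 against Lam. Sham was the low list for Scn10a and SNA for Trpv1.

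Axon guidance genes had 3 called losses and 0 gains among 23 genes, beside 2.03% and 7.65% of all genes. Lam against Sham had 5 losses and 0 gains, beside 3.22% and 6.05% of all genes. Besides Robo1, the losses were Dcc, the netrin receptor, with 22 peaks in Sham and 8 in SNA, beside 8 in Lam and 20 in DCA, and Sema3c, a secreted semaphorin, with 10, 4, 3 and 4. Lam was as low as SNA in both. The list's net of -62 peaks became 19 when weak peaks with a −log10 q under 1.3 were left out. Among strong peaks the same list went the other way, with 6 gains (26.1%, beside 5.88% of all genes) and 0 losses. It held 68 strong peaks in Sham and 123 in SNA, beside 64 in Lam and 68 in DCA. Strong peaks were more numerous in SNA in all 11 lists, by ratios of up to 2.11, and the guidance genes are long, with a median of 326 kb beside 17.2 kb for all genes. Slit1, a ligand of the Robo receptors, had 0, 13, 1 and 1 strong peaks and 26, 45, 41 and 34 of any strength. Slit3 had 1, 14, 3 and 4 strong peaks, and Plxna4, a semaphorin coreceptor, 4, 15, 3 and 7. Ephb1, Plxna2 and Ntn1 were the other gains from strong peaks. Ephb1 had 1, 7, 6 and 1, so Lam was near SNA, Plxna2 4, 9, 1 and 3, and Ntn1 1, 5, 2 and 1. For Slit1, Slit3 and Plxna4 no other list reached 8 strong peaks.

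The list of neuronal adhesion and synapse organisation held 26 very long genes. From all peaks it had 0 called gains and 0 losses, beside 7.65% and 2.03% of all genes. Among all genes over 500 kb, 0.442% were called as gains and 3.10% as losses, so gains were rarely called at this length. Lam against Sham had 0 gains and 1 loss in the list. Its peaks summed to 1707 in Sham and 1674 in SNA, beside 1583 in Lam and 1587 in DCA. From strong peaks 9 (34.6%, beside 5.88% of all genes) were gains and 1, Cdh12, a loss (3.85%, beside 0.110%). Lam against Sham had 1 gain (3.85%, beside 0.768%) and 8 losses (30.8%, beside 0.781%), so calls were frequent in these genes between the controls too. Cdh13 had 4 strong peaks in Sham and 16 in SNA, beside 3 in Lam and 8 in DCA, and Opcml 3, 13, 5 and 5. Both genes encode adhesion proteins anchored by a lipid. Dab1, the adaptor of reelin signalling, had 6, 16, 8 and 5, and Tenm4 2, 12, 4 and 9. The sums of strong peaks were 151, 245, 116 and 144. The net of all peaks, -33, became 234 without peaks under a −log10 q of 1.3 and 91 against Lam.

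**Figure D5:**
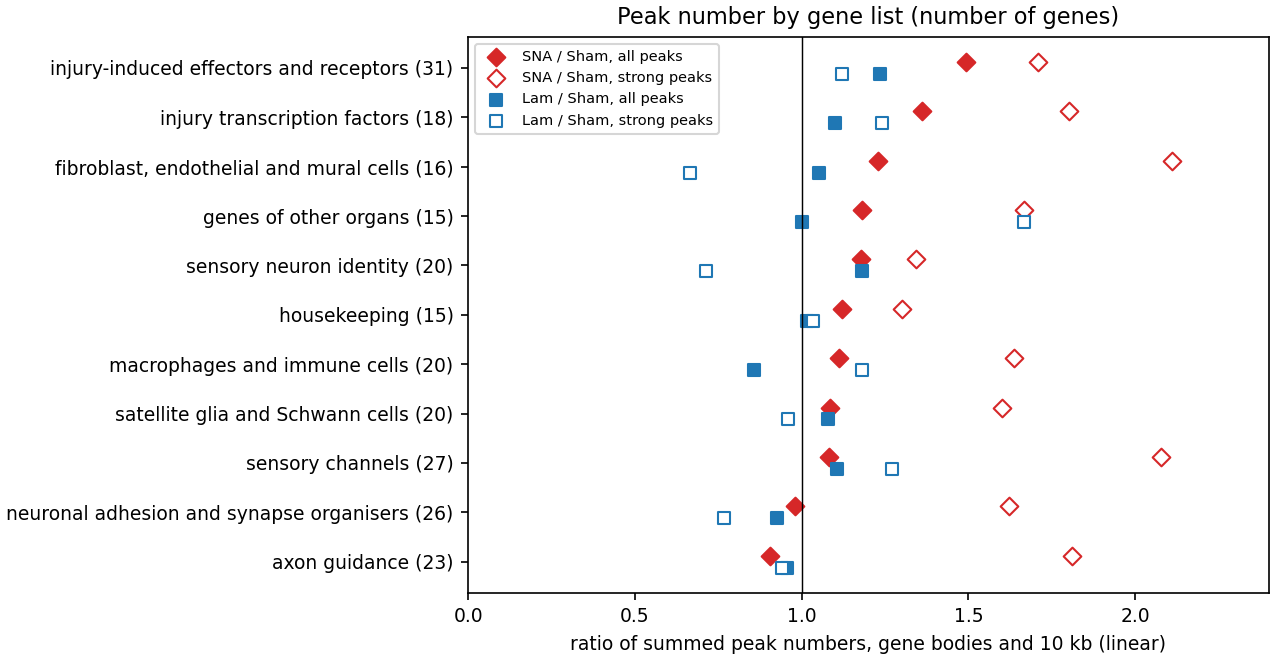
Ratio of summed peak numbers to Sham (x axis, linear) for 11 gene lists, for SNA and Lam, with all peaks filled and strong peaks open. With all peaks SNA over Sham runs from 0.905 (axon guidance) to 1.49 (injury-induced effectors and receptors), and with strong peaks it is above 1 in every list.

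The lists of other cell types of the ganglion had 0 gains and 1 loss among 20 glial genes, 3 and 1 among 20 immune genes and 2 and 0 among 16 fibroblast, endothelial and mural genes, beside 7.65% and 2.03% of all genes. Lam against Sham had 0 gains and 1 loss among the glial genes. Among the fibroblast, endothelial and mural genes it had 2 gains, in Kdr and Cldn5, and 0 losses, beside 6.05% and 3.22% of all genes. In the list of satellite glia and Schwann cells Ednrb, the endothelin B receptor, was a loss with 7 peaks in Sham and 2 in each other list. Mbp, the myelin basic protein, Mag and Gfra3 were gains from strong peaks. Mbp had 3, 8, 2 and 2 in Sham, SNA, Lam and DCA, and Mag 0, 3, 1 and 2. Gfra3 had 0, 3, 0 and 3, so DCA equalled SNA there. Among the macrophage and immune genes C1qb, Cd163 and Ptprc were gains and Il1b a loss. Lam against Sham had 0 gains and 4 losses there, beside 6.05% and 3.22% of all genes. C1qb, a complement subunit, had 1, 5, 3 and 4 peaks, and Il1b 5, 2, 2 and 2. No member of this list was called from strong peaks. The peaks of 6 macrophage markers summed to 41 in Sham and 45 in SNA, beside 28 in Lam and 38 in DCA, and with lists of equal size the net of the whole immune list, 10, became -4 and that of the glial list, 12, became -2. Pdgfra, a receptor of fibroblasts, had 7, 14, 7 and 10 peaks and Rgs5, of pericytes, 1, 4, 0 and 3, and both were gains. The promoters of Rgs5 and C1qb went the other way, each with a Sham-only peak that neither Lam nor DCA had, and of 3 endothelial and mural markers 2 had a promoter peak in Sham and 1 in SNA. Pecam1, of endothelial cells, had 0, 3, 0 and 1 strong peaks. Of 15 housekeeping genes none was called from all peaks in SNA against Sham. Lam against Sham called 2 gains (13.3%, beside 6.05% of all genes) and 1 loss among them. Gapdh went from 2 to 5 strong peaks with 5 in Lam. It was a gain from strong peaks in both comparisons, 6.67% of the list beside 5.88% and 0.768% of all genes. Of 15 genes of other organs 2 were gains (13.3%, beside 7.65% of all genes). Among them was Lhb, a pituitary hormone subunit, with 3, 6, 3 and 5 peaks, so a gain of a few peaks was also found in genes that this tissue is not known to use. The part of changed cell numbers in these values was not tested.

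SNA-only peaks were rarely near the ends of genes. Of all SNA peaks 8.15% lay within 1 kb of a start site, but of the SNA-only peaks 2.15% did. Within 1 kb of either gene end lay 5.17% of SNA-only peaks, beside 4.54% of Sham-only and 5.55% of Lam-only peaks. A further 52.9% of SNA-only peaks lay in gene bodies and 42.0% between genes. Histone mark peaks are a readout that did not enter the choice of peaks. The H3K9ac list of SNA, an acetylation of active promoters and enhancers, overlapped 8.99% of SNA-only peaks (interval 8.82% to 9.17%), 7.46% of Sham-only and 9.16% of Lam-only peaks, against 28.5% of the SNA peaks shared with Sham. The smaller H3K9ac list of Sham gave 5.94%, 4.80% and 6.05% for the first 3. For H3K27ac of SNA the overlap was 7.28% of SNA-only, 5.99% of Sham-only and 7.35% of Lam-only peaks, against 26.7% of the shared peaks. H3K27me3 of SNA, a mark of repressed chromatin, overlapped 14.2%, 13.9% and 13.5%, and 11.5% of the shared peaks, so its order was the reverse. The larger H3K27me3 list of Lam overlapped 23.5% of SNA-only and 24.1% of shared peaks. SNA-only peaks were thus marked about as often as peaks gained between the control lists. Strong SNA-only peaks overlapped H3K9ac of SNA in 13.4% and strong Lam-only peaks in 15.3%.

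Of 21262 promoters of 300 bp, which belong to 17491 genes, 61.0% had a peak in Sham and 63.8% in SNA, beside 61.4% in Lam and 62.8% in DCA. An SNA-only peak touched 996 promoters, or 4.68%, and a Sham-only peak 508, or 2.39%. A Lam peak that no Sham peak overlapped touched 823 (3.87%) and a Sham peak that no Lam peak overlapped 752 (3.54%). Strong peaks were at 54.1% of promoters in SNA, 48.5% in Sham, 48.4% in Lam and 51.6% in DCA, and 56 promoters had a strong peak in SNA and in no other list, against 26 for Sham, 11 for Lam and 33 for DCA. Among list genes with a promoter sequence, 164 of 231, SNA-only peaks touched 20 (12.2%, beside 5.27% of all genes with a sequence), Sham-only peaks 10 (6.10%, beside 2.77%) and Lam-only peaks 9 (5.49%, beside 4.38%). Sham peaks that no Lam peak overlapped touched 14 (8.54%, beside 700 of all 17491 genes), so a share above that of all genes was also found between the controls.

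The AP-1 letters shown above occurred in 11.3% (interval 9.52% to 13.5%) of the promoters with an SNA-only peak, in 6.50% (4.66% to 8.98%) of those with a Sham-only peak and in 9.72% (7.88% to 11.9%) of those with a Lam-only peak. All promoters held them in 6.99%, those with a shared peak in 4.29% and those with no peak in Sham or SNA in 11.2%. Base composition moved with these groups, with a median GC content of 62.3% in promoters with a shared peak, 54.7% with an SNA-only peak and 45.7% with none. Among promoters of 50% to 55% GC the share was 15.0% with an SNA-only peak (44 of 294), 4.88% with a Sham-only peak (8 of 164), 10.0% with a Lam-only peak (25 of 249) and 8.47% over all. Below 45% GC it was 8.62%, 16.7%, 13.2% and 13.3%, and at 55% to 60% GC it was 11.4%, 5.22%, 11.6% and 5.25%, so SNA-only promoters were not the highest in either. At 45% to 50% GC it was 9.43%, 6.12%, 7.76% and 10.0%, so SNA-only promoters were the highest of the unmatched groups but below all promoters. From 60% GC up it was 8.56%, 5.19%, 7.26% and 3.42%, with SNA-only promoters the highest. CRE letters were in 1.20%, 1.18% and 0.972% of promoters with an SNA-only, Sham-only and Lam-only peak. For the STAT letters TTCNNNGAA these shares were 7.93%, 7.87% and 8.51%, for the GC box GGGCGG 34.3%, 29.3% and 32.4%, and for the E-box CANNTG 78.1%, 78.3% and 74.7%.

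The strongest SNA-only peaks were present in Lam and DCA as well. The first, chr10:4057857-4058305 in the body of Mthfd1l, a mitochondrial enzyme of folate metabolism, had a −log10 p of 26.6 and a fold enrichment of 4.32. The other 5 of the first 6 lay in Arid1b, 0.02 kb from a start site of Edar, and between genes near AY761185, Lama4 and Cyp3a25, and all 6 were overlapped by a Lam and a DCA peak. Of the SNA-only peaks in no other list, some of the strongest lay in Tln1 (which encodes talin), Lysmd3 and Atxn1 and near Tle1 and Asb5, with −log10 p values of 15.6 to 19.6. The strongest Sham-only peak, chr15:85177680-85177855 near Fbln1, was shared by Lam and DCA, and the strongest in no other list lay in Cmtm4 and Arhgap28. Over all SNA-only peaks 56.9% were in neither the Lam nor the DCA list, and of the strong ones 39.9%, while of the Lam peaks without a Sham peak 56.3% were in neither SNA nor DCA, and of the strong ones 33.8%.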

How the data were processed

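The authors deposited 1 ATAC peak list per surgery, made from 3 pooled samples, in the narrow-peak layout, with reads on mm10 per the submitters' processing notes. The aligner, the peak caller and its settings are not given in the sources used here. Fold enrichment, as deposited, is the linear ratio to background, the −log10 p and −log10 q are those of the authors' caller, and the deposited display score and summit offset were not analysed. They served to describe, rank or select peaks inside 1 list, and the numbers selected were compared between lists. The authors' lists of H3K9ac, H3K27ac and H3K27me3, each from 2 pooled samples, were used as intervals only. Peak names carry ranks up to 531081 in the SNA list, which has 257256 lines, so the deposited lists are parts of longer ones by a rule not given in the sources used here.

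Repeated intervals were collapsed to the highest −log10 p, leaving 174605 SNA and 153556 Sham peaks. A peak was shared with an overlap of 1 bp or more, and strong at a −log10 q of 5 or more. The SNA background of 17.28 reads was recovered by solving each fold and −log10 p for a whole read count under a Poisson tail, within 0.003, which held for 99.9977% of SNA peaks. Depth per sample is unknown. Genes were 21883 protein-coding genes of RefSeq GRCm38.p6, with 10 kb on either side, and RefSeq held 21262 promoter sequences for 17491 of them. Exons and introns were not assigned. A gene was called with a net of at least 3 peaks and 2-fold. Named were the 12 largest net gains and losses, the 10 largest called ones up to 50 kb long, called or leading members of 11 gene lists, and the 6 strongest unmatched peaks, with symbols starting Gm or ending Rik left out. A few items that this rule selects are not reported here. The rankings by strong peaks and against all 3 other lists were added after the data were seen. Members and gene lists were chosen with earlier results of these data known. Python 3.11.15 with numpy 2.4.6, pandas 2.3.3, scipy 1.17.1 and statsmodels 0.14.6 was used, and the overlap and call functions were tested on simulated lists. Alternatives covered the strength limit, list size, overlap rule, window and control list, the last added after the data were seen.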

Additional observations from a re-analysis of the deposited data

How the results depend on the processing

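Each list pools its samples, so no spread between mice enters any value, and leaving out a replicate could not be run. No paired analysis was possible because each list pools all replicates of a surgery. The share of SNA peaks without a Sham peak, 59.6%, was 57.3% with strong peaks in both lists, 63.1% at a −log10 q of 1.3 or more, 57.3% with lists of equal size (153556 peaks), 70.3% with a reciprocal overlap of 50%, 46.4% with gaps of up to 1 kb counted as shared and 58.1% against Lam. The share of Sham peaks without an SNA peak, 53.8%, was 29.3%, 51.4%, 56.9%, 66.2% and 40.9% under the first 5 of these. The 1674 gains and 445 losses became 1287 and 24 with strong peaks (101 and 0 of them among the 1674 and 445), 2580 and 270 at a −log10 q of 1.3 or more, 1070 and 779 with equal size, 3448 and 886 with unmatched peaks only, and 3351 and 878 with merged regions. A 50 kb window gave 1088 gains. Of 231 list members, 18 gains and 5 losses became 31 and 2 with strong peaks, 11 and 14 with equal size, 10 gains with gene bodies only, 36 and 16 with unmatched peaks, and 11 gains against Lam. SNA-only peaks near gene ends, 5.17%, were 12.3% with strong peaks in both lists, 5.38% at a −log10 q of 1.3 or more and 17.5% within 5 kb. Overlap with H3K9ac of SNA, 8.99%, was 13.4% for strong peaks. Among 66 named genes, called nets turned sign with strong peaks in Agrn (1), Entpd6 (1), Epha6 (3), Fads2 (1), Mc4r (1), Nudt3 (-2) and Robo1 (2), and against Lam in Lrig3 (1) and Sema3c (1). The cause was not tested. Direction and call held in 54 of the 66 at a −log10 q of 1.3 or more, 54 with equal size, 47 with gene bodies only, 58 with unmatched peaks, 30 against Lam and 10 with strong peaks. In the weakest decile of a list between 71.3% and 76.7% of peaks had no partner, so weak peaks limit every count of all peaks.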
